A study of Mus musculus with 6 samples.

Results

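The genes described here belong to the extracellular matrix and adhesion families of skeletal muscle, and they were taken by their names, with 1 exception. A gene was taken when its symbol started with Col and a digit, Lox, Adam, Mmp, Timp, Itga, Itgb, Lama, Lamb, Lamc, Fbn, Fbln, Thbs, Cdh, Pcdh, Sema, Plxn, Cldn or Serpin. Itgae, an integrin chain of lymphocytes, has such a name and was left out, although it is in the table and was also higher in NS-DADm, at 4.89 ± 2.20 normalized counts in WT and 20.6 ± 3.27 in NS-DADm (SD, n = 3 each, limma adjusted p = 0.00192). The name rule took 11 of the 709 genes of the deposited table. RNA was sequenced from the tibialis anterior (TA), a lower leg muscle of mostly fast fibers, of 3 WT and 3 NS-DADm mice. All 6 mice were C57BL/6 and 21 weeks old. NS-DADm mice carry knock-in point mutations in the deacetylase-activating domains of nuclear receptor corepressors, NCoR among them, which HDAC3 needs in order to be enzymatically active. The mutations are present in the whole body, so muscle fibers and every other cell type of the muscle carry them. WT mice carry none of these mutations.

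The deposited table lists only genes that the authors called as different between these same 6 libraries. Each value is a normalized count, understood here as the reads of a gene in a library divided by a size factor for that library. A family gene outside the table has no value here, and was either not tested or not called. Because selection used the same contrast, the p-values below are not independent evidence of a difference. They weigh each difference between genotypes against the spread between mice, and the SD gives that spread itself. In each library the values of all 709 genes were whole multiples of a single step (within 0.01 of a step), and a step would be 1 read if the authors divided whole reads by a size factor. The low values were too few to take reads as recovered, so numbers of steps are given below. The steps over the listed genes came to between 1047804 and 1411470 per library, and the total depth was not known. Of 10 markers of skeletal muscle fibers, Ttn, which encodes the giant sarcomere protein titin, was in the table, at 247705 to 275842 normalized counts in WT and 321672 to 424956 in NS-DADm, so the tissue could be checked on this marker only.

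Muscle fibers are wrapped in a basement membrane of laminins and network collagens, and lie in a looser matrix of fibrillar collagens that is made mostly by fibroblasts. Integrins and other receptors in the cell surface bind this matrix and pass tension to the cytoskeleton. Secreted proteases trim matrix proteins, inhibitors hold those proteases in check, and cross-linking enzymes stiffen collagen and elastin fibers. Semaphorins are secreted or membrane-bound cues that guide axons and vessels through this space.

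Of the 11 genes, 8 were higher and 3 were lower in NS-DADm muscles at an adjusted p under 0.05 in limma, adjusted over the genes of the table. The higher genes were Col9a1, Adamts14, Sema3b, Loxl1, Lamb2, Itgb5, Col4a3bp and Lama5. The lower genes were Serpinb6a, Itga4 and Timp2. The same test called 50.9% of all listed genes as higher and 49.1% as lower, so every gene of the table passed it, and 72.7% of the family genes were in the higher group. The libraries of the genotypes did not overlap in any of the 11 genes, against 97.9% of all listed genes. For 3 mice against 3 the smallest p that exact permutation allows is 0.1, and no such p is given. The median size of the log2 fold change, without its sign, was 0.60 in the family genes and 0.71 in the whole table. The family genes were mostly well expressed, with a median of 817 normalized counts against 349 in the table.

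A stricter adjustment treated the listed genes as part of 20000 tested genes. Under it 5 family genes stayed under 0.05 among the higher (26.0% of the table) and 2 among the lower (25.0% of the table). These were Col9a1, Adamts14, Lamb2, Itgb5 and Col4a3bp, and Itga4 and Serpinb6a. The ratio of group means was at least 1.5 in 5 of the higher genes (32.0% of the table) and in 2 of the lower genes (34.3% of the table).

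**Figure D1:**
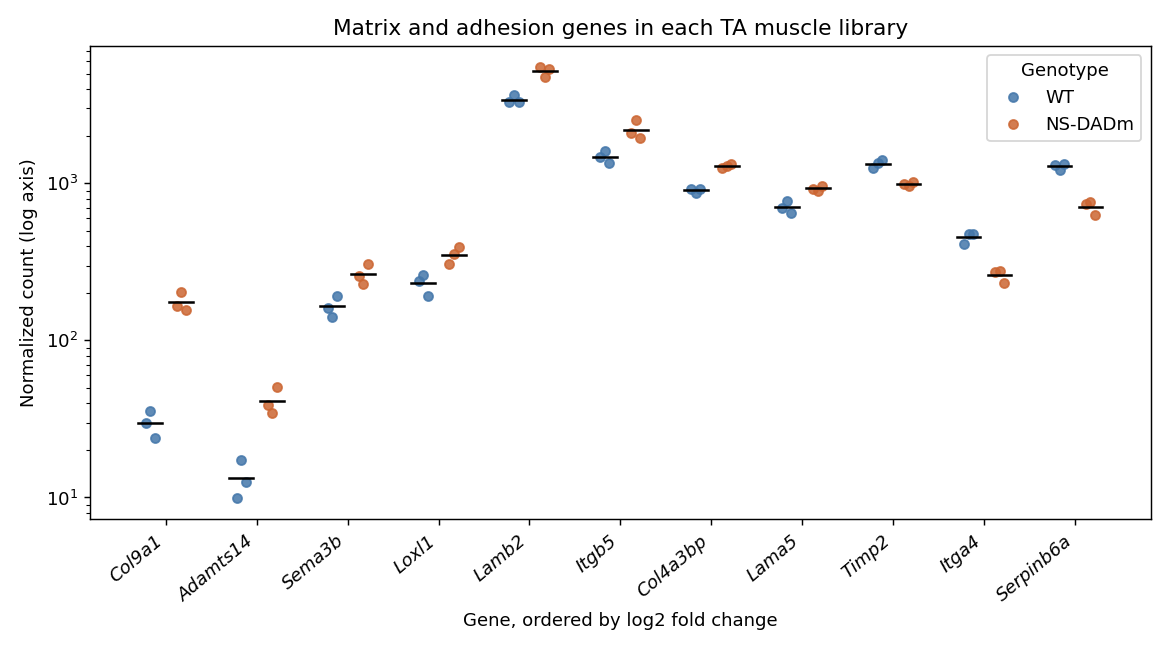
Normalized counts of the 11 family genes on a log axis. Each point is 1 library, 3 WT and 3 NS-DADm, and the black lines are group means. Col9a1 showed the widest separation, with 24.0 to 35.5 in WT and 157 to 205 in NS-DADm, and the groups did not overlap in any of the genes shown.

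Among collagens and their cross-linking enzymes, Col9a1 and Loxl1 were the genes in the table, and both were higher in NS-DADm. Col9a1 encodes a chain of type IX collagen, which coats the surface of type II collagen fibrils in cartilage and in the vitreous of the eye. WT libraries held 29.9, 35.5 and 24.0 normalized counts of Col9a1, and NS-DADm libraries 165, 205 and 157. Every NS-DADm library lay above every WT library, and the lowest NS-DADm value was 4.42 times the highest WT value. In steps, the WT libraries held 33, 39 and 25 and the NS-DADm libraries 156, 213 and 130. The group means were 29.8 ± 5.75 in WT and 175 ± 25.6 in NS-DADm (SD, n = 3 each), a ratio of 5.89. On the log2(normalized count + 1) scale the difference was 2.53 (standard error 0.21, 95% interval 2.06 to 3.00, limma adjusted p = 1.54e-05). This rise ranked 9 among the 361 higher genes of the table. Of 7 chondrocyte markers Col9a1 itself was listed, while Sox9, Col2a1, Acan, Col9a2, Col11a1 and Matn3 were not and have no values here.

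Col9a1 (ENSMUSG00000026147.16) lies on chromosome 1 of GRCm38 from 24177610 to 24252684, on the plus strand. RefSeq gives it a pair of start sites. In cartilage the upstream site gives the long chain with an added globular domain at its amino end, and in parts of the eye the downstream site gives a short chain without it. The counts are summed over the gene, so they do not show which of the 2 starts was used in muscle. The sequences before both starts are shown because they are the places where the long and the short transcript begin. Each is the 250 bases before the start, 5′ to 3′, from RefSeq (GRCm38.p6), at chr1:24177360-24177609 and chr1:24194953-24195202, with capitals for the letters AGGTCA, the half-site of many nuclear receptors, on either strand.
Col9a1 upstream start: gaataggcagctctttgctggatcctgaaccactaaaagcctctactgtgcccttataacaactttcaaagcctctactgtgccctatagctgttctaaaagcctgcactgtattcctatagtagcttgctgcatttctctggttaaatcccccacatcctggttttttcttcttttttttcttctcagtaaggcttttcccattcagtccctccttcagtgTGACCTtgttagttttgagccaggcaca
Col9a1 downstream start: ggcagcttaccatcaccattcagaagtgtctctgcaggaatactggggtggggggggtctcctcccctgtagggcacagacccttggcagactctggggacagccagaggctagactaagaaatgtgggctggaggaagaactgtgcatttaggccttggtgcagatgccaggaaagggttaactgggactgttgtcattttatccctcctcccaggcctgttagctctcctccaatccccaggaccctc
The upstream window held AGGTCA once, as its complement TGACCT beginning 28 bases before the start, and the downstream window did not hold it. The same letters were in 1 of the 11 windows of the family genes and in 14.0% of 32851 RefSeq promoter windows of this length. NCoR is a corepressor of nuclear receptors, but a match of 6 letters is a description and not a binding site.

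Loxl1 encodes a lysyl oxidase-like enzyme that cross-links elastin. The gene (ENSMUSG00000032334.10) is on chromosome 9 from 58287738 to 58313186. Normalized counts were 239, 261 and 193 in WT and 305, 353 and 392 in NS-DADm. The groups came close, the lowest NS-DADm library being 1.17 times the highest WT library. The means were 231 ± 34.8 and 350 ± 43.6 (SD, n = 3 each), a ratio of 1.52 and a log2 difference of 0.60 (standard error 0.15, limma adjusted p = 0.00335). Under the stricter adjustment its limma adjusted p was 0.0945. Of 45 annotated protein-coding genes whose names start with Col and a digit, the table held Col9a1 and Col4a3bp, and of 6 whose names start with Lox it held Loxl1.

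Col4a3bp came in through its name only. It encodes the ceramide transfer protein that carries ceramide from the endoplasmic reticulum to the Golgi, RefSeq now calls it Cert1, and it is not a collagen gene. It is on chromosome 13 from 96542618 to 96640167 (ENSMUSG00000021669.15). Its mean was 902 ± 33.6 normalized counts in WT and 1298 ± 38.8 in NS-DADm (SD, n = 3 each), a ratio of 1.44, and the libraries ranged from 863 to 924 and from 1261 to 1339. The log2 difference was 0.53 (standard error 0.09, limma adjusted p = 0.00072). Without it the families had 10 genes in the table, of which 7 were higher. This count was added after the data were seen.

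Both laminin genes in the table were higher in NS-DADm. Laminins are trimers of an alpha, a beta and a gamma chain and form the sheet to which a fiber is anchored. Lamb2 encodes the beta 2 chain, which is concentrated at the neuromuscular junction of muscle fibers and is also found in vessel walls and peripheral nerve. Its gene (ENSMUSG00000052911.9) spans chromosome 9 from 108479736 to 108490530. Lamb2 had normalized counts of 3276, 3649 and 3322 in WT and 5474, 4728 and 5341 in NS-DADm. The WT libraries lay within a narrow range, and the lowest NS-DADm library was 1.30 times the highest of them. Means were 3416 ± 204 and 5181 ± 398 (SD, n = 3 each), a ratio of 1.52 and a log2 difference of 0.60 (standard error 0.10, 95% interval 0.38 to 0.82, limma adjusted p = 0.000469). Lamb2 was the most abundant of the 11 genes and ranked 27 of 709 by mean count.

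Lama5, the alpha 5 chain, can join beta 2 and a gamma chain in 1 trimer, and is found in vessel basement membranes and at the adult neuromuscular junction. Its position is chromosome 2 from 180176373 to 180225859 (ENSMUSG00000015647.9). Its mean normalized count was 707 ± 65.2 in WT, with libraries from 647 to 776, and 928 ± 36.2 in NS-DADm, with libraries from 895 to 967 (SD, n = 3 each). The ratio was 1.31 and the log2 difference 0.40 (standard error 0.11, limma adjusted p = 0.00417), the smallest rise among the 8 higher genes. Under the stricter adjustment its limma adjusted p was 0.118.

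Per kilobase of merged exons, Lamb2 stood at 562 normalized counts in WT and Lama5 at 62.1. Merged exons pool all annotated transcripts of a gene, so the size of a ratio between genes depends on these lengths. The level of Lamb2 per kilobase was 8.81, 8.80 and 9.61 times that of Lama5 in WT and 11.1, 9.89 and 10.3 times in NS-DADm. These ratios did not overlap between genotypes but came close, at 9.61 in the highest WT and 9.89 in the lowest NS-DADm library. Both genes were selected on this same contrast, and the difference of the ratios is given without a test. None of the 3 annotated gamma chain genes was in the table, nor was any of the other alpha and beta chain genes. In the 250 bases before their starts Lama5 held CACCTG at 2 places and GGGCGG at 4, whereas Lamb2 held none of the 4 motifs searched.

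**Figure D2:**
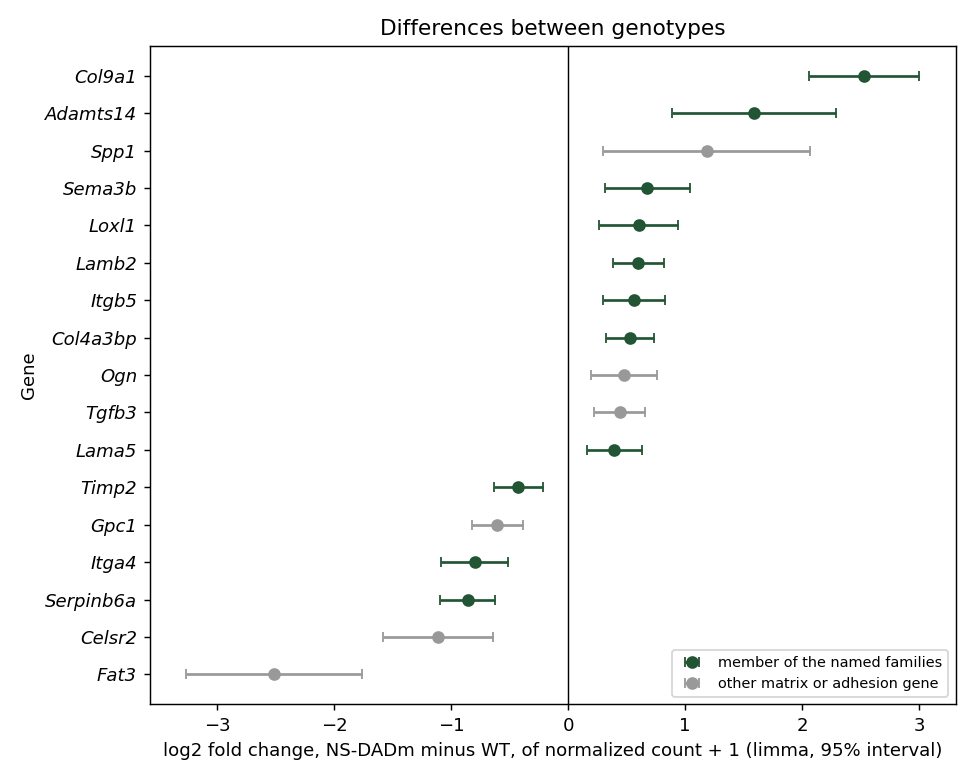
Log2 fold changes (NS-DADm minus WT) of log2(normalized count + 1) in limma, with 95% intervals. The 11 family genes are in green. In grey are the 6 genes of the table taken from lists of other matrix and adhesion genes. The values run from 2.53 for Col9a1 to -2.51 for Fat3. Every interval lies on 1 side of 0, which holds for the whole table, since it lists called genes only and all of them passed.

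The protease and inhibitor families contributed a gene that was higher and a pair that were lower. Adamts14 encodes a secreted metalloproteinase that removes the amino-terminal propeptide of fibrillar procollagens. The gene (ENSMUSG00000059901.12) lies on chromosome 10 from 61197112 to 61273438. Its level was low in WT, at 9.96, 17.3 and 12.5 normalized counts, and stood at 39.1, 34.6 and 50.7 in NS-DADm, where the lowest library was 1.999 times the highest WT library. These values are small also in steps, 11, 19 and 13 in WT and 37, 36 and 42 in NS-DADm. The means were 13.2 ± 3.73 and 41.4 ± 8.32 (SD, n = 3 each), a ratio of 3.13. The log2 difference was 1.59 (standard error 0.32, 95% interval 0.89 to 2.29, limma adjusted p = 0.00124), the widest interval among the 11 genes. Its spread in WT, a coefficient of variation of 28.1%, was also the largest of the 11.

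Timp2 encodes a tissue inhibitor of metalloproteinases, which blocks matrix metalloproteinases and also takes part in activating the precursor of MMP2. In WT its normalized counts were 1246, 1341 and 1401, and in NS-DADm 992, 960 and 1015. All NS-DADm libraries lay under all WT libraries, and those of NS-DADm were close together. The ratio of the WT to the NS-DADm mean was 1.34, from 1329 ± 78.2 to 989 ± 27.4 (SD, n = 3 each), and the log2 difference was -0.42 (standard error 0.10, limma adjusted p = 0.00194). Timp2 missed 0.05 under the stricter adjustment, at a limma adjusted p of 0.0546. Timp2 (ENSMUSG00000017466.9) occupies chromosome 11 from 118301069 to 118355740, and 55.8 Mb separate it from Ncor1, the mutated NCoR gene. Cep295nl lies within its span on the same strand.

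Serpinb6a encodes a serpin that stays inside the cell and inhibits serine proteases, so that its action on secreted matrix is not its main known role. It was the family gene with the largest fall. The 6 libraries had 1307, 1219 and 1325 normalized counts in WT and 734, 763 and 634 in NS-DADm, and the lowest WT library was 1.60 times the highest NS-DADm library. Means were 1284 ± 56.8 and 710 ± 67.7 (SD, n = 3 each), a 1.81-fold lower level in NS-DADm and a log2 difference of -0.86 (standard error 0.11, 95% interval -1.09 to -0.62, limma adjusted p = 9.63e-05). Serpinb6a (ENSMUSG00000060147.15) lies on chromosome 13 from 33917918 to 34002794, and its span overlaps Nqo2 and Ripk1, which lie on the opposite strand and are not in the table. It also has close paralogs in the same cluster, so reads that fit several of them may be counted in part or not at all. Of 22 annotated Mmp genes and of 58 whose names start with Adam, the table held Adamts14 alone, and it held 1 of 4 Timp and 1 of 61 Serpin genes.

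The integrins moved in opposite directions. Itgb5, the beta 5 chain, pairs with the alpha V chain in a receptor for vitronectin. On chromosome 16 it spans 33829665 to 33949338 (ENSMUSG00000022817.14). Its normalized counts were 1478, 1605 and 1355 in WT and 2090, 2543 and 1946 in NS-DADm. The second NS-DADm library was the highest, and the lowest NS-DADm library was 1.21 times the highest WT library. Means were 1479 ± 125 and 2193 ± 312 (SD, n = 3 each), a ratio of 1.48 and a log2 difference of 0.56 (standard error 0.12, limma adjusted p = 0.0016).

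Itga4, the alpha 4 chain, pairs with beta 1 or beta 7 and binds VCAM1 and fibronectin; it is best known from leukocytes and is also made by muscle precursors. Itga4 (ENSMUSG00000027009.18) is on chromosome 2 from 79255426 to 79333123. Counts after normalization were 408, 478 and 477 in WT and 272, 279 and 233 in NS-DADm. No NS-DADm library reached the lowest WT library, which was 1.47 times the highest NS-DADm value. The means were 455 ± 39.96 and 261 ± 24.8 (SD, n = 3 each), 1.74-fold lower in NS-DADm, with a log2 difference of -0.80 (standard error 0.13, 95% interval -1.08 to -0.51, limma adjusted p = 0.000451). The partner chains named here, alpha V, beta 1 and beta 7, were not in the table, and of 17 Itga names without Itgae and 13 Itgb names the table held 1 each. The span of Itga4 overlaps Cerkl on the opposite strand, and the sources used here do not say whether reads were counted by strand.

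Sema3b was the only semaphorin of 20 annotated ones in the table. It encodes a secreted class 3 semaphorin, which acts on axons and vessels through neuropilins and plexins. The gene (ENSMUSG00000057969.15) spans chromosome 9 from 107597674 to 107609229, 0.871 Mb from Lamb2. Normalized counts stood at 160, 142 and 192 in WT and 259, 228 and 305 in NS-DADm. The groups were separated by a small gap, the lowest NS-DADm library being 1.19 times the highest WT library. The means were 165 ± 25.3 and 264 ± 39.1 (SD, n = 3 each), a ratio of 1.60 and a log2 difference of 0.68 (standard error 0.16, limma adjusted p = 0.00275), and the limma adjusted p was 0.0777 under the stricter adjustment. None of the 9 plexin genes was in the table, nor were the neuropilins Nrp1 and Nrp2.

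Among the 11 genes, levels per kilobase of merged exons spread widely. In WT they ran from 2.55 normalized counts per kilobase for Adamts14 and 5.88 for Col9a1 to 416 for Itgb5 and 562 for Lamb2. In NS-DADm Col9a1 reached 34.6 per kilobase, which was above the 18.7 of Itga4, whereas in WT Itga4 stood at 32.5. Merged exons pool all annotated transcripts of a gene, 13978 bases for Itga4 and 5068 for Col9a1. The order of genes depends on these lengths. The spread between mice was of the size seen in the whole table. The median coefficient of variation of the 11 genes was 8.79% in WT and 9.54% in NS-DADm, against 10.5% and 12.0% over all listed genes.

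Of the 19 name families, 10 had a gene in the table and 9 had none. The latter were the cadherins, protocadherins, claudins, fibulins, fibrillins, thrombospondins, plexins, laminin gamma chains and matrix metalloproteinases. GENCODE M21 annotates 408 protein-coding genes with these names, Itgae not counted, of which 2.70% were in the table, and 2.93% of all 22028 protein-coding genes were in it. Both shares count genes that muscle does not express. With Itgae left out, no family was represented by more than 1 gene apart from the Col names, of which Col4a3bp is not a collagen gene.

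**Figure D3:**
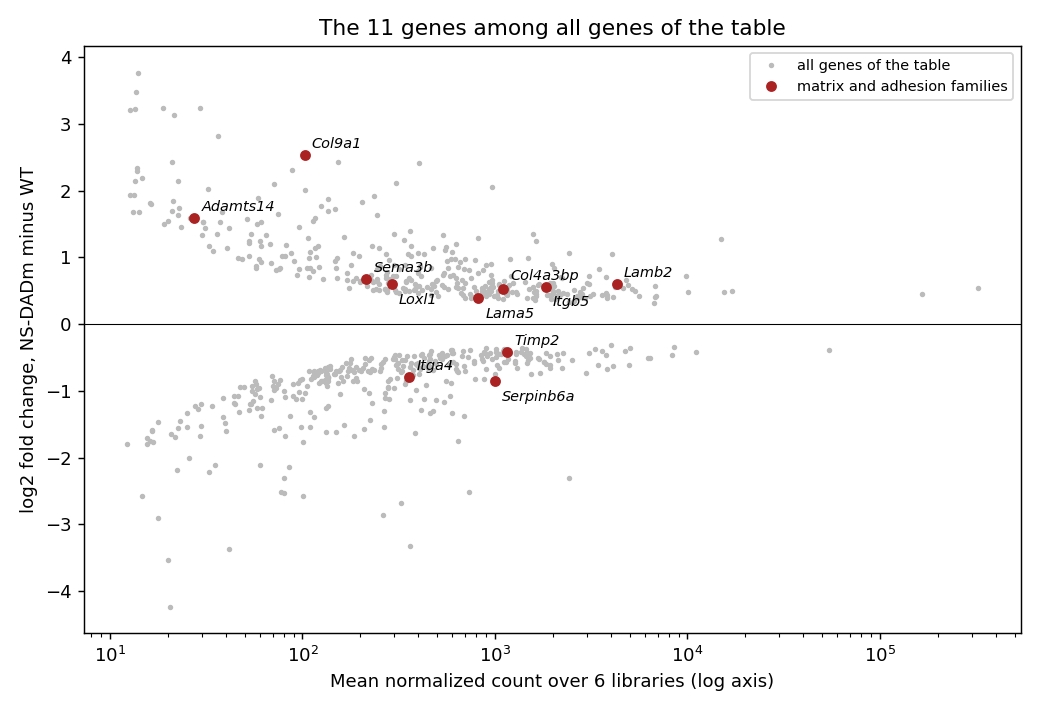
Log2 fold change (NS-DADm minus WT) against the mean normalized count over the 6 libraries on a log axis, for all 709 genes of the table in grey and the 11 family genes in red. Genes near 0 are missing because the table holds called genes only. Col9a1 stands out at a mean of 103 and a log2 difference of 2.53, and Lama5 lies near the inner edge at 0.40.

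RefSeq promoter windows were found for 9 of the 11 genes, giving 11 windows since Col9a1 and Serpinb6a each have 2 starts. GGGCGG, the GC box bound by Sp1, was in 7 of the 11 windows and in 32.7% of all windows. CACCTG, an E-box, was in 4 of 11 and in 17.2% of all. TATAAA was in 0 of 11 and in 12.4% of all. All motifs were searched on both strands. The median GC content was 64.0% in the 11 windows and 52.4% over all windows. These shares are a description and no test was made of them.

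Lists of other matrix and adhesion genes, whose names the rule does not take, held 174 symbols, of which 172 were found in GENCODE. Of these, 6 were in the table, 3 higher (50.9% of the table) and 3 lower (49.1% of the table) at a limma adjusted p under 0.05. The higher ones, Tgfb3, Ogn and Spp1, came from the list of matrix genes and their modifiers. The lower ones, the surface genes Fat3, Celsr2 and Gpc1, came from the list for adhesion, membrane links and guidance. This split was not tested, and the lists do not hold every matrix or adhesion gene of the table. Among the family genes Timp2, a secreted inhibitor, was lower and Itgb5, a surface receptor, was higher. Tgfb3, a transforming growth factor beta ligand that acts on matrix synthesis, was 1.36-fold higher, with 833, 923 and 853 normalized counts in WT and 1125, 1238 and 1178 in NS-DADm. Ogn, a small leucine-rich proteoglycan of the matrix also called osteoglycin, was 1.39-fold higher, at 256 ± 18.1 in WT and 356 ± 31.4 in NS-DADm (SD, n = 3 each). Both missed 0.05 under the stricter adjustment, with limma adjusted p-values of 0.052 and 0.112.

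Spp1 encodes osteopontin, a secreted matrix protein that macrophages make in injured muscle. Its normalized counts were 46.2, 29.1 and 68.2 in WT and 65.5, 86.4 and 197 in NS-DADm. The groups overlapped, and the third NS-DADm library was far above the other 2. Its log2 difference was 1.18 (standard error 0.40, limma adjusted p = 0.0134). Without that library it was 0.72 with a limma adjusted p of 0.0605. Mrc1, a macrophage mannose receptor, was the only one of 7 leukocyte markers in the table, and it was 2.04-fold higher, with 120 to 144 normalized counts in WT and 224 to 296 in NS-DADm. Whether more cells or more RNA per cell gave this cannot be told apart in bulk muscle, which holds for every gene here. Which cells made the Mrc1 RNA is not known from these values. Any part of macrophages in the Spp1 and matrix values was not tested.

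Of the lower surface genes, Fat3, a very large atypical cadherin, fell most. Its normalized counts were 87.8, 163 and 145 in WT and 15.8, 17.3 and 36.2 in NS-DADm, a 5.71-fold lower mean and a log2 difference of -2.51 (standard error 0.34, limma adjusted p = 0.000165). Celsr2, a cadherin-like receptor of planar cell polarity, was 2.22-fold lower, with 422, 436 and 246 in WT and 183, 172 and 142 in NS-DADm. The third WT library of Celsr2 was low against the other 2 and still above all NS-DADm libraries. Gpc1, a heparan sulfate proteoglycan anchored in the cell membrane, was 1.52-fold lower, at 6007 ± 503 in WT and 3943 ± 221 in NS-DADm (SD, n = 3 each).

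Markers of the cells that make or contact matrix were looked for in the table. None of 10 markers of fibroblasts and fibro-adipogenic progenitors was in it, nor any of 6 for tendon cells, 8 for endothelial cells, 6 for pericytes and smooth muscle, 6 for Schwann cells, 6 for satellite cells and 5 for adipocytes. Those genes have no values here.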

How the data were processed

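The deposited table holds normalized counts, a signal per gene and library that the authors made by dividing read counts by a size factor, for the genes that they called. The paper's methods name STAR for the alignment to GRCm38. TopHat2 (2.1.0) stands in the processing notes of the submitters instead, beside HTSeq and DESeq2 (1.8.2), and this conflict was not settled. Each library comes from 1 mouse. The deposited group means, log2 fold changes, p-values and fold ratios of the authors' own comparison were not used.

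All listed genes were fitted on log2(normalized count + 1) by limma (3.58.1, R 4.3.3) with a trend of variance on mean, and two-sided p-values were adjusted after Benjamini and Hochberg over the table. The limma fit was tried on simulated counts in which most genes had no difference, unlike this table. That run checks the fit and not the genes here. Folds are ratios of group means. The 20000 genes of the stricter adjustment are an assumed round number.

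The members and lists were chosen with earlier results of these data known. Every member was named, with the value of each library for the 6 largest rises and for all falls. Positions and exon lengths come from GENCODE M21 (GRCm38). Of 709 identifiers, 708 matched it without their version. Promoters come from RefSeq (GRCm38.p6) and were searched in the 250 bases before each start, leaving out the planned bases after it, which are transcribed. Some windows, that of Timp2 among them, lie partly or wholly inside the GENCODE span of their gene, so they may also hold transcribed bases. A planned search of protein sequences was not made. Alternatives were quantile normalization, pseudocounts of 0.5 and 5, a minimum mean of 50, a fit with no trend, a replicate block, a limit of 1.5-fold and each library left out in turn.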

Additional observations from a re-analysis of the deposited data

How the results depend on the processing

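Of 220 alternative values of the 11 family genes and 6 other genes, 212 stayed in the same direction and on the same side of 0.05, 8 no longer passed and 0 changed sign. These genes are in the table because they were called on these same libraries, so this stability was largely set by the selection. Of the 8, 7 came from the adjustment as if 20000 genes were tested, which needs a smaller p: Sema3b, Loxl1, Lama5, Timp2, Ogn, Spp1 and Tgfb3. The other was Spp1 without the third NS-DADm library. Family genes called higher fell from 8 to 5 under that adjustment and to 5 where at least 1.5-fold was also required. Genes from the lists of other matrix and adhesion genes fell from 6 to 3 under the adjustment. The lower genes Gpc1, Fat3 and Celsr2 stayed, and the higher genes Ogn, Spp1 and Tgfb3 did not. Of the whole table, 26.0% was called higher and 25.0% lower under it. Quantile normalization moved the log2 fold changes of the table by a median of -0.017. Lamb2 then stood at 0.43 and Lama5 at 0.30 (limma adjusted p = 0.0335). With the replicate block all 709 genes passed, as without it, but the deviations from the group means correlated between mice of the same number at -0.15 for number 1, 0.15 for number 2 and 0.05 for number 3, and the numbers were not taken to pair the mice. Leaving out 1 library moved the log2 difference of Col9a1 between 2.38 and 2.66 and that of Adamts14 between 1.42 and 1.79, and Adamts14 was not tested under the minimum mean of 50. The 2 planned count tests were not run, because the table holds too few low values for read counts to be taken as recovered. Smaller differences at low counts are not in the table.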
